A study of Mus musculus with 8 samples.

Results

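Interferon-stimulated genes were followed as 1 group of 42 listed mouse genes, picked by name from the known interferon response. The list was chosen with earlier results of these data known, so it is not independent of the counts below. A gene was measured when the array carried a probe set annotated to its symbol alone, and its brightest probe set by mean over the arrays stood for it. That held for 40 of the 42 genes, out of 11217 genes tested in all, and these 40 lay above the array median on each of the 8 arrays. Isg15, which encodes a ubiquitin-like protein, had only a probe set shared with the symbol Gm9706 and was left out, and no probe set was named Ifi44 alone.

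The study measured gene expression in polyclonal memory CD4 T cells sorted from the spleen 60 days after infection of mice with the Armstrong strain of LCMV, which causes an acute infection that is cleared. There were 4 groups of 2 arrays, namely Rictor-null Tfh cells, WT Tfh cells, Rictor-null Th1 cells and WT Th1 cells, and the RNA on an array came from a pool of 10 or more mice. Tfh cells are follicular helper cells that support B cells, Th1 cells make interferon gamma, and Rictor is a subunit that only mTOR complex 2, a kinase complex, contains. All 4 groups came from infected mice at the same time point, so no uninfected or interferon-treated cells were available for comparison. The sources used here do not give the Cre line or deleted stretch behind the Rictor-null label, the sort gates, or the age and sex of the mice. The labels call the replicates biological, and the p-values below measure only the spread between these arrays.

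Type I interferons bind the receptor pair IFNAR1 and IFNAR2, and JAK kinases then activate STAT proteins. A complex that holds STAT2 and IRF9 binds a DNA element called ISRE, and the response to interferon gamma works largely through an element called GAS. The genes switched on in this way encode sensors of foreign nucleic acid, effectors that block virus entry, replication or release, and factors that feed back on the signal. T cells keep a basal level of many of these genes without infection.

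Depth does not apply to arrays, and their number limits the precision. Median signals over all probe sets lay between 35.7 and 37.7 on the 8 arrays. Between the arrays of a group the typical SD of the 40 genes was 0.111 log2 for Rictor-null Tfh cells, against 0.0579 for WT Tfh cells, and 0.0787 for Rictor-null Th1 cells, against 0.0757 for WT Th1 cells. On the third principal component over all genes tested, 2 arrays stood apart from the other array of their groups. They were replicate 2 of Rictor-null Tfh (-12.4, against 1.09 for replicate 1) and replicate 1 of WT Th1 (-6.49, against -0.60 for replicate 2). The median of the 40 genes is therefore also given without both. Rictor itself did not pass the test in either lineage (changes of 0.02 ± 0.074 log2 in Tfh and -0.07 ± 0.074 in Th1 cells), and where its probe set lies relative to the deleted stretch is not given, so it does not check the labels. Cd3e and Cd4, which define helper T cells, did not pass between genotypes in either lineage. The gene of the follicular homing receptor, Cxcr5, had signals of 241 and 297 in Rictor-null Tfh cells and 183 and 179 in WT Tfh cells, and 52.7 and 50.04 in Rictor-null Th1 cells and 55.7 and 46.8 in WT Th1 cells. Markers of Th1 cells did not set the Th1 arrays apart. Of 7 tested, 1 was called higher and 1 lower in Tfh than in Th1 cells among Rictor-null cells, and 3 were called higher and 0 lower in Tfh cells among WT cells. The Th1 factor gene Tbx21 was not called in either genotype (Tfh minus Th1 of -0.01 log2 in Rictor-null and -0.07 in WT cells). In bulk samples like these, fewer cells of a type and less RNA per cell cannot be told apart.

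Rictor-null Tfh cells had more transcript of many interferon-stimulated genes than WT Tfh cells. Of the 40 genes, 16 rose and 1 fell at an adjusted p under 0.05 (limma, Benjamini-Hochberg over all genes tested), and 23 did not pass. Over all 11217 genes 13.6% passed, with 11.3% up and 2.31% down. The median change of the 40 genes was 0.18 log2, against 0.04 over all genes. A positive change was seen for 33 of the 40, and for 6810 of all 11217 genes. Values are differences of log2(signal + 32) and so understate the change of dim genes, and folds are of the signal plus 32. With Ifitm1, Ifitm2 and Ifitm3 set aside, 13 of 37 rose and 1 fell, with a median of 0.14. Without the 2 arrays that stood apart, the median of the 40 genes was 0.13, against 0.02 over all genes. It was also 0.13 with replicate 2 of Rictor-null Tfh alone left out, again against 0.02 over all genes. With replicate 1 or replicate 2 of WT Tfh left out it was 0.17 or 0.19, against 0.04 over all genes. Fewer genes were called in each of these fits, among the 40 and over all genes. With replicate 1 of Rictor-null Tfh left out instead, the median of the 40 genes was 0.23, against 0.06 over all genes. In that fit more genes were called, among the 40 and over all genes. After quantile normalization 12 rose and 1 fell, while the share of rises among all called genes was 63.1%, against 83.0% with the deposited scaling.

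In Rictor-null Th1 cells the same comparison gave fewer calls. Of the 40 genes 11 rose, 1 fell and 28 did not pass, where 10.5% of all genes passed, 7.55% up and 2.97% down. The median of the 40 genes was 0.06 log2, against 0.00 over all genes. Without the Ifitm genes 8 of 37 rose and 1 fell. Without the 2 arrays that stood apart, the median of the 40 genes was 0.09, against 0.01 over all genes. After quantile normalization 10 rose and 1 fell, and the share of rises among all called genes was 55.4%, against 71.8%. The difference between lineages in the number of calls was not tested as such, and the test per gene is given below.

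The genotype comparisons in Tfh and in Th1 cells used no array in common. The 11 genes that rose in both were Eif2ak2, Ifit1, Ifit3, Mx1, Rsad2, Oasl2, Ifitm1, Ifitm2, Ifitm3, Gbp3 and Ifi27l2a, where 4.46% of all genes rose in both. Isg20, Trim25, Igtp and Rtp4 passed in Tfh cells alone, Sp100 fell in Tfh cells, and Bst2 rose in Tfh cells and fell in Th1 cells. The remaining 23 genes passed in neither by their brightest probe sets, though dimmer ones of Xaf1, Zbp1 and Gbp2 did pass, as given below.

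**Figure D1:**
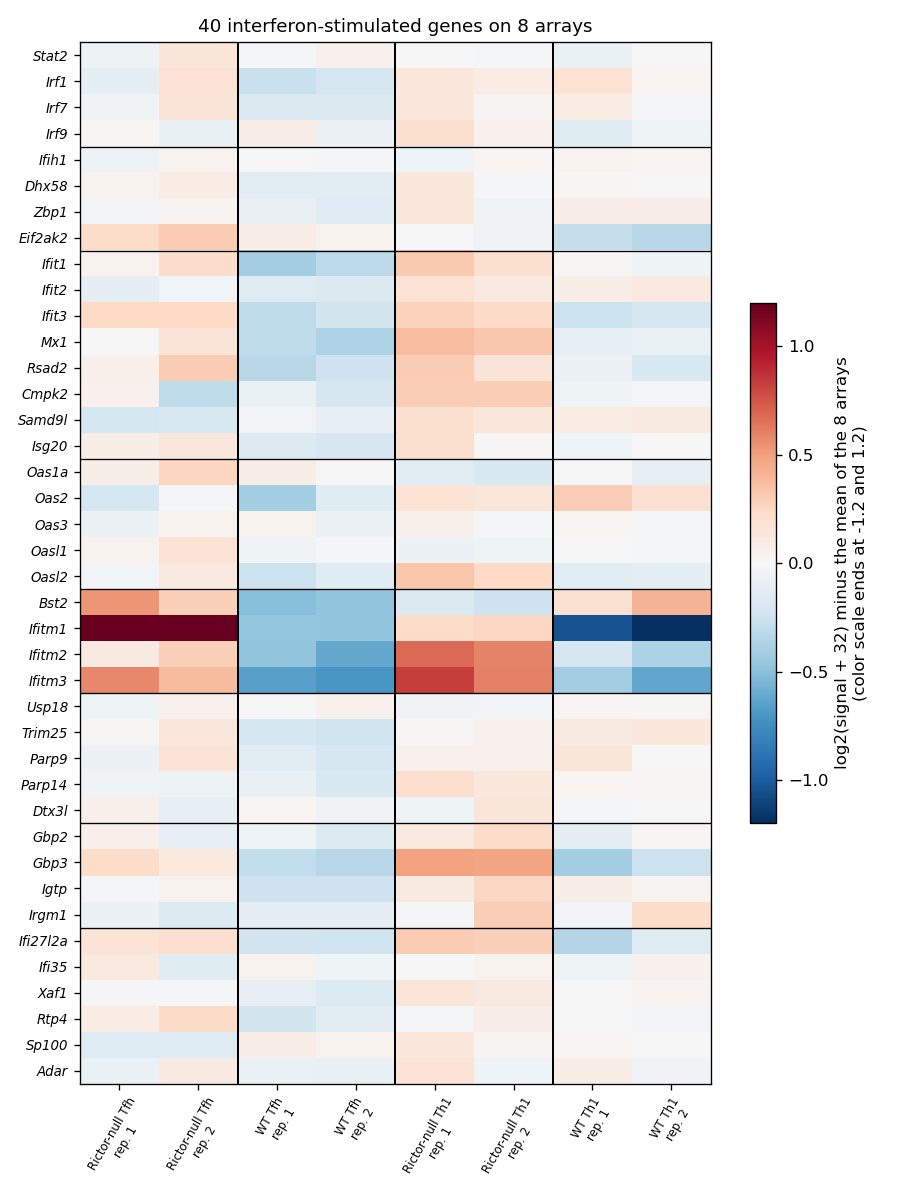
Each row is 1 of the 40 genes and each column 1 array, with color giving log2(signal + 32) minus the mean of the 8 arrays, and horizontal lines separate the roles. The WT Tfh columns form the bluest block, with 7 and 5 of the 40 genes above their own mean, against 21 and 28 on the Rictor-null Tfh arrays.

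**Figure D2:**
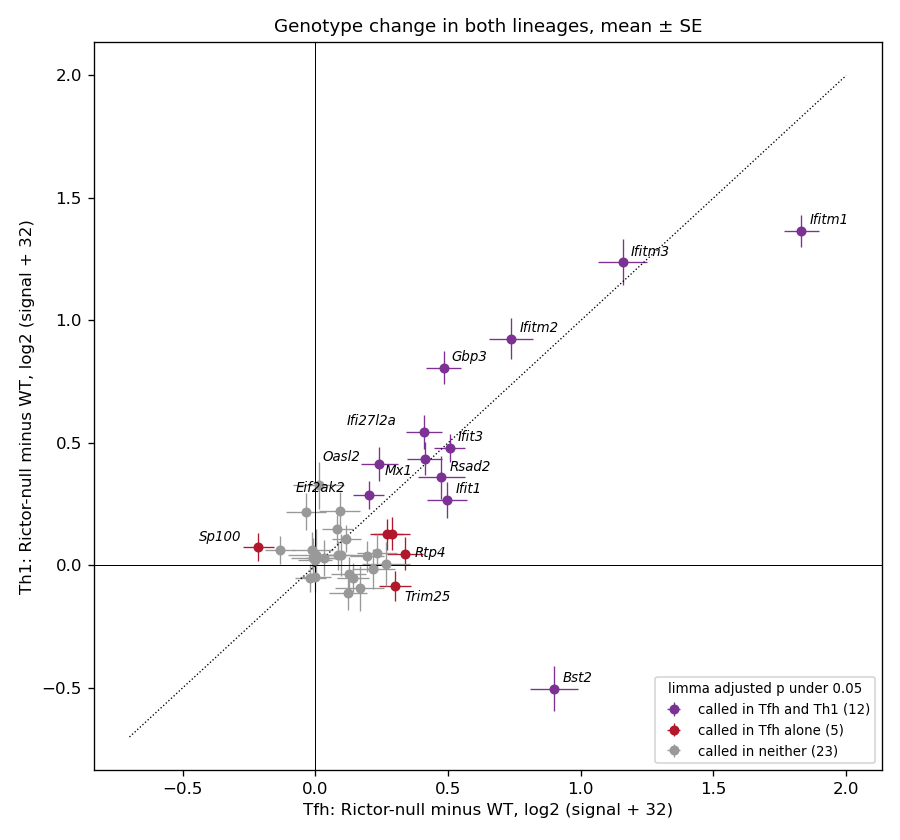
Points give the change from WT to Rictor-null in Tfh cells (horizontal) and Th1 cells (vertical) in log2(signal + 32), bars are standard errors of the fit, and the dotted line marks equal change. The Ifitm genes lie far from the origin in the upper right, and Bst2 lies alone in the lower right, at 0.90 and -0.50.

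The level of the whole group on each array was summarised as the median over the 40 genes of log2(signal + 32) minus the gene's mean over the 8 arrays. It was 0.02 and 0.12 on the Rictor-null Tfh arrays, against -0.13 and -0.16 on the WT Tfh arrays. It was 0.13 and 0.10 on the Rictor-null Th1 arrays, against 0.00 and -0.01 on the WT Th1 arrays. The Rictor-null arrays thus lay above the WT arrays of the same lineage on this summary, and the WT Tfh arrays were the lowest of the 8. Over all genes the same median lay between -0.05 and 0.02 on every array.

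The DNA letters just before the start sites show what these genes carry of the known interferon elements. The RefSeq promoter table (GRCm38.p6, 250 bases before to 50 after each start) held 31 of the 40 genes. The ISRE core was searched as GAAA, any 2 bases and GAAA again, and the GAS core as TTCNNNGAA, where N is any base, both on both strands. An ISRE match was found for 15 of 31 genes (48.4%), where 3.99% of the 27025 genes searched had one. A GAS match was found for 10 of 31 (32.3%), where 9.55% of all had one. Of the genes that rose in both lineages, 7 of 9 with a promoter had an ISRE match, and of those that passed in neither, 6 of 17 had one. For GAS these numbers were 2 of 9 and 5 of 17. Ifitm1 and Oasl2, which rose in both, had neither match. These are descriptions of letters in a window of 300 bases, were not tested, and do not show binding. To compare matches in front of genes with different behaviour, windows of 60 bases are printed below 5′ to 3′ along the gene, with each ISRE match in capitals, which is the reverse complement where it reads TTTC, 2 bases and TTTC. The first 5 belong to genes that rose in both lineages, then follows Bst2, and the last 3 belong to genes that passed in neither. They lie at chr19:34640760-34640819 (plus strand) for Ifit1, chr19:34583348-34583407 (plus) for Ifit3, chr12:26456538-26456597 (minus) for Rsad2, chr3:142559974-142560033 (plus) for Gbp3, chr7:140955973-140956032 (minus) for Ifitm2, chr8:71537568-71537627 (minus) for Bst2, chr3:142620579-142620638 (plus) for Gbp2, chr5:120777700-120777759 (minus) for Oas3 and chr10:128270251-128270310 (plus) for Stat2.
Ifit1: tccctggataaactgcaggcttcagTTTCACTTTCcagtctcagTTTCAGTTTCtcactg
Ifit3: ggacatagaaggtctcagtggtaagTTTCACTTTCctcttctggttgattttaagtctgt
Rsad2: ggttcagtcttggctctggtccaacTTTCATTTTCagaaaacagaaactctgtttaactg
Gbp3: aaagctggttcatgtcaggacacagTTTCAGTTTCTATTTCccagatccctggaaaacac
Ifitm2: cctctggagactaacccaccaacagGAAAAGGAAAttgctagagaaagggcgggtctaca
Bst2: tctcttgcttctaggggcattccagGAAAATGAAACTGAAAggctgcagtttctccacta
Gbp2: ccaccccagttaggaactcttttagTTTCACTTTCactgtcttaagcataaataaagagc
Oas3: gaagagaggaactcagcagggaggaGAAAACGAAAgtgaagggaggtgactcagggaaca
Stat2: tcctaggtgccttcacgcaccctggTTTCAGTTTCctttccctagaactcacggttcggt
Ifit1, Gbp3 and Bst2 show 2 matches each, which overlap in Gbp3 and Bst2. In Bst2 the letters in front of the capitals also make a GAS match that shares bases with the first ISRE match. Gbp2, Oas3 and Stat2 carry matches of the same core and were called in neither genotype comparison by their brightest probe sets.

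The interferon-induced transmembrane proteins, which sit in cell membranes and hinder the entry of enveloped viruses, held the largest rise of the group in each lineage. Ifitm1 (chromosome 7) had signals of 669 and 663 in Rictor-null Tfh cells, against 165 and 163 in WT Tfh cells. In Th1 cells it had 285 and 290 in Rictor-null cells, against 99.8 and 84.6 in WT cells. The 2 arrays were close in every group but WT Th1, and the genotypes did not overlap in either lineage. Ifitm1 rose by 1.83 ± 0.065 log2 in Tfh cells (SE, n = 2 arrays per group, 3.56-fold, adjusted p = 1.31e-07, limma) and by 1.37 ± 0.065 in Th1 cells (2.58-fold, adjusted p = 4.4e-07, limma). Among all genes tested it had rank 2 by size of rise in Tfh cells and rank 11 in Th1 cells.

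Ifitm3, the family member known for restricting influenza virus in mice, had signals of 277 and 238 in Rictor-null Tfh cells, against 99.6 and 95.3 in WT Tfh cells. In Th1 cells it had 335 and 283 in Rictor-null cells, against 123 and 102 in WT cells. It rose by 1.16 ± 0.094 log2 in Tfh cells (2.23-fold) and by 1.24 ± 0.094 in Th1 cells, with no overlap between genotypes. Ifitm2 had 92.4 and 108 in Rictor-null Tfh cells, against 51.3 and 43.35 in WT Tfh cells, and 153 and 142 in Rictor-null Th1 cells, against 68.1 and 56.8 in WT Th1 cells. Its rises were 0.74 ± 0.083 log2 in Tfh cells and 0.93 ± 0.083 in Th1 cells, and its groups did not overlap either. These genes are close relatives in a cluster on chromosome 7, and cross-hybridisation between their probes was not tested.

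Bst2 encodes tetherin, which holds budding virus particles at the cell surface, and it moved in opposite directions in the lineages. Its signals were 199 and 163 in Rictor-null Tfh cells, against 80.6 and 83.2 in WT Tfh cells. In Th1 cells they were 110 and 103 in Rictor-null cells, against 149 and 180 in WT cells. Bst2 rose by 0.90 ± 0.091 log2 in Tfh cells (1.87-fold, adjusted p = 0.000117, limma) and fell by 0.50 ± 0.091 in Th1 cells (adjusted p = 0.00498, limma). The fall in Th1 cells missed the threshold without Rictor-null Th1 replicate 2 (adjusted p = 0.0558).

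**Figure D3:**
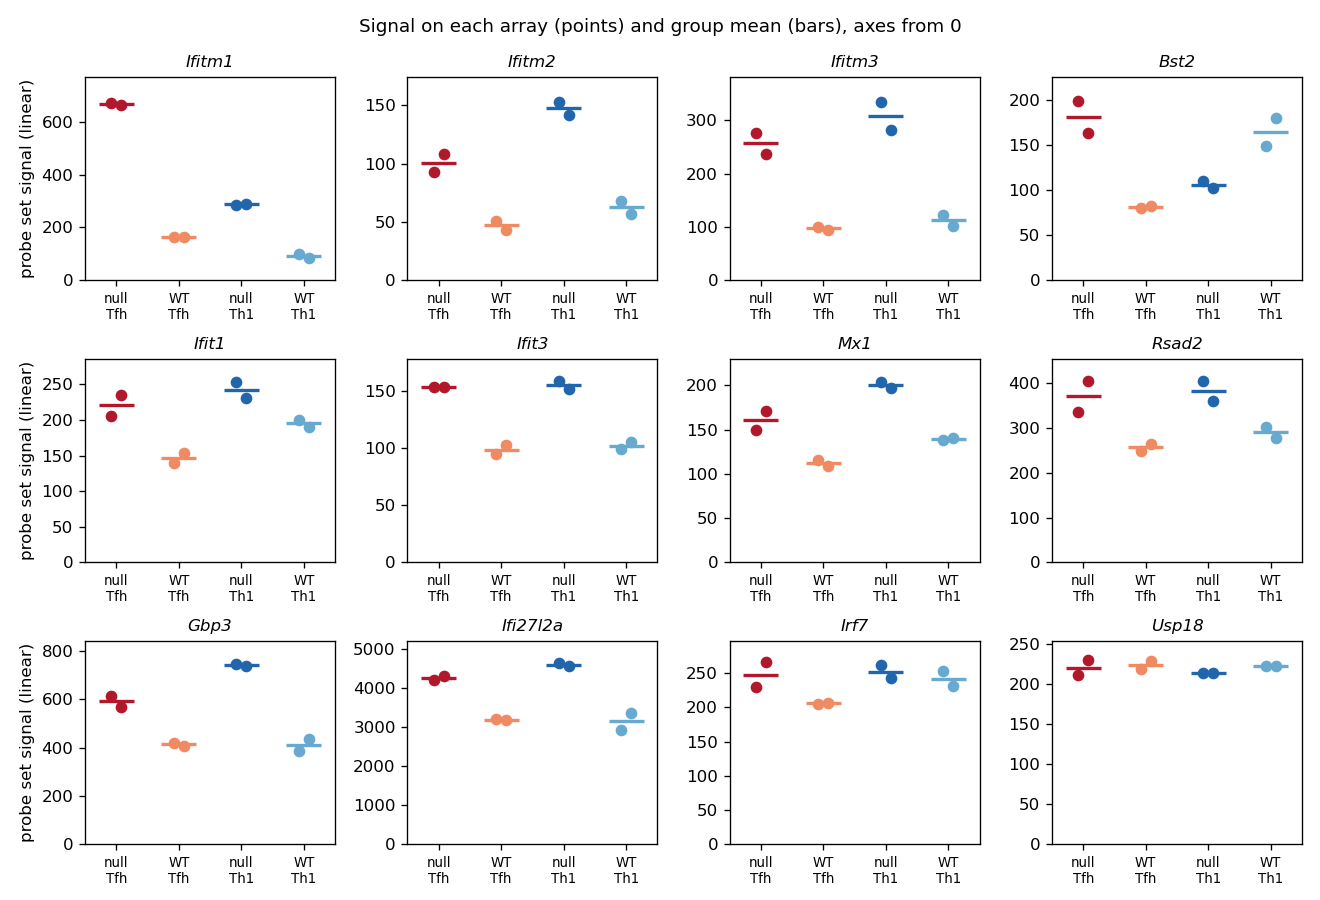
Points are single arrays and bars are group means of the linear probe set signal for 12 genes, on axes that start at 0, with null standing for Rictor-null. Rictor-null points sit above WT points in both lineages for the Ifitm, Ifit, Mx1, Rsad2, Gbp3 and Ifi27l2a panels, the order turns round between lineages for Bst2, and the 4 groups of Usp18 lie between 211 and 229.

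The effectors of the IFIT and MX families and their neighbours rose in 5 of 8 cases in Tfh cells and in 4 of 8 in Th1 cells, with 0 falls in both. Ifit3, a family member that partners with IFIT1 on foreign RNA in human cells, had 154 and 153 in Rictor-null Tfh cells, against 94.9 and 102 in WT Tfh cells, and 158 and 151 in Rictor-null Th1 cells, against 99.3 and 105 in WT Th1 cells. It rose by 0.51 ± 0.058 log2 in Tfh cells and by 0.48 ± 0.058 in Th1 cells, almost the same amount, and its genotypes did not overlap. Ifit1, which binds viral RNA with an incomplete cap, had 206 and 235 in Rictor-null Tfh cells, against 140 and 153 in WT Tfh cells, and 254 and 230 in Rictor-null Th1 cells, against 200 and 190 in WT Th1 cells. Its rises were 0.50 ± 0.075 in Tfh cells and 0.27 ± 0.075 in Th1 cells. The rise of Ifit1 in Th1 cells missed the threshold when any of 6 arrays was left out (adjusted p of 0.0704 to 0.263).

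Mx1, a dynamin-like GTPase that blocks replication of influenza virus in mice, had 150 and 172 in Rictor-null Tfh cells, against 116 and 109 in WT Tfh cells. In Th1 cells it had 204 and 197 in Rictor-null cells, against 139 and 141 in WT cells. Its rises were 0.41 ± 0.066 log2 in Tfh cells and 0.44 ± 0.066 in Th1 cells. Rsad2 encodes viperin, an enzyme that makes a chain-terminating nucleotide. It had 337 and 404 in Rictor-null Tfh cells, against 249 and 265 in WT Tfh cells, and 405 and 360 in Rictor-null Th1 cells, against 303 and 278 in WT Th1 cells, again with no overlap. It rose by 0.48 ± 0.087 log2 in Tfh cells and by 0.36 ± 0.087 in Th1 cells. A second probe set of Rsad2 also rose in both (0.60 and 0.29), and its remaining probe set was below the filter. The call was lost in Tfh cells without WT Tfh replicate 1 (adjusted p = 0.0669), and in Th1 cells without replicate 1 of Rictor-null Th1 or either WT Th1 array (adjusted p of 0.0515 to 0.191).

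Isg20, an exonuclease that degrades RNA, had 335 and 350 in Rictor-null Tfh cells, against 278 and 271 in WT Tfh cells. It rose by 0.29 ± 0.068 log2 there, and in Th1 cells its change was 0.13 and did not pass (366 and 320 in Rictor-null cells, against 304 and 317 in WT cells). Ifit2, Cmpk2, which lies beside Rsad2 and makes nucleotide precursors, and Samd9l passed in neither lineage. Cmpk2 had a change of 0.33 in Th1 cells (adjusted p = 0.0564) and of 0.01 in Tfh cells, where its Rictor-null arrays read 131 and 95.3 and spanned the 117 and 105 of WT cells.

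Among the sensors, only Eif2ak2 passed between genotypes. It encodes PKR, a kinase that halts translation on double-stranded RNA. Its signals were 187 and 201 in Rictor-null Tfh cells, against 167 and 162 in WT Tfh cells, and 156 and 151 in Rictor-null Th1 cells, against 123 and 118 in WT Th1 cells. The rises were small, 0.20 ± 0.058 log2 in Tfh cells and 0.29 ± 0.058 in Th1 cells, and the first missed the threshold when any of 7 arrays was left out (adjusted p of 0.059 to 0.251). Without Rictor-null Th1 replicate 1 or WT Th1 replicate 2 the rise in Th1 cells missed it too (adjusted p of 0.0627 to 0.0778). A dimmer probe set of Eif2ak2 had changes of 0.05 in Tfh cells and -0.06 in Th1 cells and did not pass, and with the mean of all probe sets per gene Eif2ak2 passed in neither (0.12, adjusted p = 0.112, and 0.11, adjusted p = 0.173, limma). Ifih1 (the RNA sensor MDA5), Dhx58 (its relative LGP2) and Zbp1, a sensor of left-handed nucleic acid, did not pass in either lineage by their brightest probe sets, with changes of 0.00 for Ifih1, 0.20 for Dhx58 and 0.13 for Zbp1 in Tfh cells. A dimmer probe set of Zbp1 had a change of 0.21 in Tfh cells (adjusted p = 0.0501), fell by 0.31 in Th1 cells (adjusted p = 0.0101) and differed between lineages by 0.52 (adjusted p = 0.0240, limma over all probe sets that passed the filter).

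In the oligoadenylate synthetase family, whose enzymes activate the nuclease RNase L, 1 of 5 genes rose in each lineage. That gene was Oasl2, a family member, with 67.2 and 77.9 in Rictor-null Tfh cells, against 53.2 and 59.7 in WT Tfh cells, and 95.7 and 88.0 in Rictor-null Th1 cells, against 60.1 and 61.9 in WT Th1 cells. It rose by 0.41 ± 0.069 log2 in Th1 cells and by 0.24 ± 0.069 in Tfh cells, where the call was lost when any of 7 arrays was left out (adjusted p of 0.0566 to 0.278). Oas1a, Oas2, Oas3 and Oasl1 did not pass, with changes of 0.00 to 0.17 in Tfh cells and of -0.11 to 0.02 in Th1 cells.

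The GTPases induced by interferon, which act on the compartments of intracellular pathogens, included the largest rise in Th1 cells outside the Ifitm genes by brightest probe set. Gbp3, a guanylate-binding protein, had 613 and 569 in Rictor-null Tfh cells, against 420 and 408 in WT Tfh cells. In Th1 cells it had 745 and 737 in Rictor-null cells, against 387 and 433 in WT cells. The genotypes were clearly separate in both lineages, and the rises were 0.48 ± 0.066 log2 in Tfh cells and 0.81 ± 0.066 in Th1 cells (adjusted p = 2.19e-05, limma). Igtp, of the immunity-related GTPases, had 711 and 742 in Rictor-null Tfh cells, against 598 and 598 in WT Tfh cells, a rise of 0.27 ± 0.063 that was lost when any of 3 arrays was left out (adjusted p of 0.085 to 0.133). In Th1 cells Igtp had 777 and 860 in Rictor-null cells, against 760 and 733 in WT cells, which did not pass (0.13). Gbp2 and Irgm1 passed in neither by their brightest probe sets, and a dimmer one of Gbp2 rose in Th1 cells (0.26, adjusted p = 0.0270, limma over all probe sets that passed the filter).

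Ifi27l2a, a small interferon-induced membrane protein, was bright in every group. It had 4188 and 4297 in Rictor-null Tfh cells, against 3209 and 3167 in WT Tfh cells, and 4633 and 4552 in Rictor-null Th1 cells, against 2926 and 3361 in WT Th1 cells. The rises were 0.41 ± 0.069 log2 in Tfh cells and 0.55 ± 0.069 in Th1 cells. Rtp4, which has a zinc finger and is induced by type I interferon, had 798 and 882 in Rictor-null Tfh cells, against 634 and 681 in WT Tfh cells, and rose by 0.34 ± 0.068 log2. In Th1 cells it had 738 and 787 in Rictor-null cells, against 747 and 726 in WT cells, and these groups overlapped. Sp100, a protein of PML nuclear bodies, was the single gene of the group to fall in Tfh cells, by 0.21 ± 0.058 log2, with 424.0 and 424.3 in Rictor-null cells, against 504 and 490 in WT cells. In Th1 cells Sp100 had 522 and 486 in Rictor-null cells, against 483 and 471 in WT cells, and did not pass. Leaving out Rictor-null Tfh replicate 2, WT Tfh replicate 1 or WT Tfh replicate 2 ended the call of Sp100 (adjusted p of 0.0956 to 0.215) and of Isg20 (0.085 to 0.149), and leaving out the first or the second of these ended that of Rtp4 (0.052 to 0.108). A dimmer probe set of Sp100 had a change of 0.01 in Tfh cells and did not pass, and with the mean of all probe sets Sp100 was not called there (-0.10, adjusted p = 0.234, limma). Ifi35, Xaf1 and Adar did not pass in either lineage by their brightest probe sets. A dimmer one of Xaf1 rose by 0.92 in Tfh cells and by 0.97 in Th1 cells (adjusted p = 0.00074 and 0.000434, limma over all probe sets that passed the filter).

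Of the genes around ISG15, ubiquitin and ADP-ribose, Trim25 alone passed. It encodes a ubiquitin ligase that acts on the RNA sensor RIG-I. Its signals were 598 and 655 in Rictor-null Tfh cells, against 509 and 497 in WT Tfh cells, a rise of 0.30 ± 0.060 log2 that was lost without any of the same 3 arrays (adjusted p of 0.0518 to 0.102). The other 2 probe sets of Trim25 had changes of 0.17 and 0.14 in Tfh cells and did not pass. In Th1 cells the brightest probe set of Trim25 had 599 and 615 in Rictor-null cells, against 639 and 652 in WT cells. Its change of -0.08 did not pass, nor did those of the other 2 (0.08 and -0.06). Usp18, which removes ISG15 and damps the type I receptor, had 211 and 229 in Rictor-null Tfh cells, against 218 and 228 in WT Tfh cells, and 213 and 214 in Rictor-null Th1 cells, against 222 and 222 in WT Th1 cells. Its changes were -0.02 ± 0.058 log2 (adjusted p = 0.861) for Tfh and -0.05 ± 0.058 (adjusted p = 0.631) for Th1 cells. Parp9, Parp14 and Dtx3l did not pass.

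Of the 4 signalling factors 0 passed between genotypes by limma, though 2 in Tfh cells and 1 in Th1 cells had an unadjusted p under 0.05. Stat2, a subunit of the factor that binds ISRE, had 62.0 and 76.4 in Rictor-null Tfh cells, against 63.9 and 69.4 in WT Tfh cells, and 65.2 and 64.5 in Rictor-null Th1 cells, against 60.3 and 65.3 in WT Th1 cells. Irf9, its DNA-binding partner, had 359 and 329 in Rictor-null Tfh cells, against 373 and 334 in WT Tfh cells, and 406 and 366 in Rictor-null Th1 cells, against 315 and 339 in WT Th1 cells. The changes of Irf9 were -0.03 in Tfh cells and 0.22 in Th1 cells (adjusted p = 0.0968). Irf7, which drives transcription of type I interferon genes, had 229 and 266 in Rictor-null Tfh cells, against 205 and 206 in WT Tfh cells. Its change was 0.23 ± 0.074 log2 (adjusted p = 0.064), and in Th1 cells it was 0.05, with 261 and 243 in Rictor-null cells, against 253 and 231 in WT cells. Irf1, a factor induced by interferon gamma, had 1180 and 1446 in Rictor-null Tfh cells, against 1055 and 1107 in WT Tfh cells. Its change there was 0.27 ± 0.089 (adjusted p = 0.0722), and in Th1 cells it was 0.01, with 1398 and 1358 in Rictor-null cells, against 1444 and 1301 in WT cells. Rictor-null Tfh replicate 1 was the lower array for both Irf1 and Irf7, and without it their changes passed in Tfh cells (adjusted p = 0.00478 for Irf1 and 0.011 for Irf7).

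Whether the genotype change differed between lineages was tested per gene as the change in Tfh cells minus that in Th1 cells. Of the 40 genes 2 passed, where 1.21% of all genes did (0.820% with the larger change in Tfh cells and 0.392% with the smaller), and both had the larger change in Tfh cells. Bst2 had a difference of 1.40 ± 0.13 log2 (adjusted p = 0.000801, limma) and Ifitm1 of 0.47 ± 0.092 (adjusted p = 0.0377, limma). The call of Ifitm1 was lost when any of 6 arrays was left out, with a difference of 0.38 to 0.55 log2 over the 22 alternatives tried. Trim25 came next in adjusted p, with 0.38 ± 0.085 (adjusted p = 0.0635). Isg20, Igtp, Rtp4 and Sp100 passed in Tfh cells alone, but for none of them did the difference between lineages pass.

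Lineage differences were read separately in each genotype, and these comparisons share arrays with those above. In Rictor-null cells 4 of 40 genes were higher and 9 lower in Tfh than in Th1 cells, where 9.72% of all genes passed, 3.27% higher and 6.45% lower. In WT cells 2 of 40 were higher and 8 lower in Tfh than in Th1 cells, where 14.7% of all genes passed, 3.09% higher and 11.6% lower. After quantile normalization these became 4 higher and 5 lower in Rictor-null cells, and 2 higher and 5 lower in WT cells. Over all called genes the share higher in Tfh cells then was 44.5% in Rictor-null and 40.3% in WT cells, against 33.7% and 20.99% with the deposited scaling, and median scaling gave 23.5% in Rictor-null cells. The median of the 40 genes was -0.06 log2 in Rictor-null cells, against -0.01 over all genes, and -0.14 in WT cells, against -0.06. Without the 2 arrays that stood apart it was -0.12 in Rictor-null cells, against -0.03 over all genes, and -0.13 in WT cells, against -0.05. With 1 array left out in turn it ranged from -0.12 to -0.02 in Rictor-null cells and from -0.14 to -0.12 in WT cells. The number called was lower in most of these fits, among the 40 genes and over all genes.

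Ifitm1 was higher in Tfh cells in both genotypes, by 1.13 ± 0.065 log2 in Rictor-null cells and 0.66 ± 0.065 in WT cells. Eif2ak2 was also higher in Tfh cells in both, by 0.28 ± 0.058 in Rictor-null and 0.37 ± 0.058 in WT cells. Bst2 changed side, being 0.62 ± 0.091 higher in Tfh than in Th1 cells among Rictor-null cells and 0.78 ± 0.091 lower in Tfh cells among WT cells. Oas2 had 131 and 163 in WT Tfh cells, against 232 and 213 in WT Th1 cells, and was lower in Tfh cells by 0.52 ± 0.092 log2, the largest such difference in WT cells after Bst2. In Rictor-null cells Oas2 had 154 and 182 in Tfh cells, against 209 and 204 in Th1 cells, a difference of -0.26 that did not pass. Ifit1 (-0.35), Trim25 (-0.34), Irf1 (-0.33), Igtp (-0.31), Ifit2 (-0.26) and Mx1 (-0.25) were lower in Tfh than in Th1 cells in WT. Irf1 kept that call under 12 of the 22 alternatives only. Mx1 (-0.27) and Ifit2 (-0.22) were lower in Tfh cells in Rictor-null cells as well. There Ifitm2 (-0.44), Cmpk2 (-0.42), Samd9l (-0.36), Gbp3 (-0.31), Oasl2 (-0.25), Sp100 (-0.23) and Parp14 (-0.22) also passed and Oas1a was higher (0.32). In Rictor-null cells Parp14 kept its call under 5 of the 22 alternatives, Oasl2 under 7, Ifit2 under 10, Sp100 under 11 and Mx1 under 14. Dimmer probe sets of Sp100 (0.09 in Rictor-null cells) and Eif2ak2 (0.08 in Rictor-null and -0.03 in WT cells) did not pass. Some dimmer probe sets passed where the brightest did not, each lower in Tfh cells. They were those of Dtx3l in Rictor-null cells (-0.33, adjusted p = 0.0122) and, in WT cells, Zbp1 (-0.34, adjusted p = 0.00883) and Rsad2 (-0.21, adjusted p = 0.0446). These p-values are from limma over all probe sets that passed the filter. In all, 18 genes passed in at least 1 genotype and 5 in both. The matching shares over all genes were not counted, so these numbers cannot be set against the general lineage difference.

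**Figure D4:**
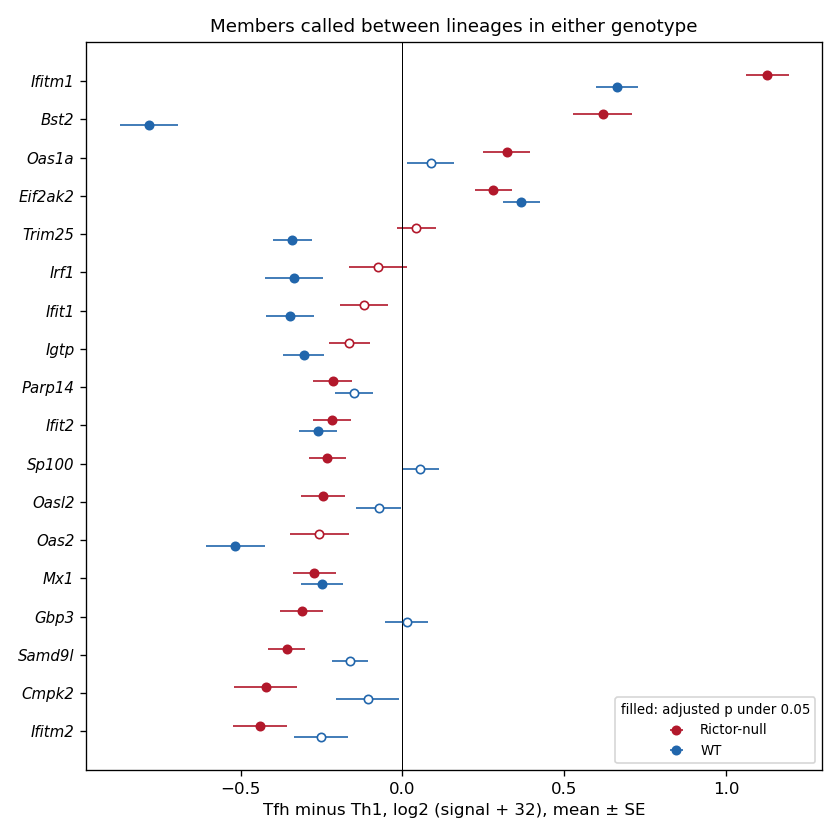
The horizontal axis gives Tfh minus Th1 in log2(signal + 32) for the 18 genes called in either genotype, with standard errors of the fit, and filled points passed at an adjusted p under 0.05. Ifitm1 and Eif2ak2 lie right of 0 in both genotypes, and Bst2 lies right of 0 in Rictor-null cells and left of 0 in WT cells.

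The upstream genes of the pathway are given by list, and no test compared the lists. For these and the later lists, 11.3% of all genes rose and 2.31% fell in Tfh cells. In Th1 cells 7.55% of all genes rose and 2.97% fell. Of 10 interferon ligand genes named on the array, 3 passed the filter and 0 passed the test in either lineage, 1 with an unadjusted p under 0.05 in each. Ifnb1, the gene of interferon beta, was below the array median on all 8 arrays. Ifng, the gene of interferon gamma, had 1589 and 1564 in Rictor-null Tfh cells, against 1588 and 1605 in WT Tfh cells, and 1421 and 1477 in Rictor-null Th1 cells, against 1449 and 1540 in WT Th1 cells. Its changes were -0.02 ± 0.057 log2 (adjusted p = 0.864) for Tfh and -0.04 ± 0.057 (adjusted p = 0.691) for Th1 cells.

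Among 9 receptor, JAK and STAT genes tested, 3 rose in Tfh cells and 2 in Th1 cells, and 0 fell. Ifngr1, the ligand-binding chain of the interferon gamma receptor, had 447 and 450 in Rictor-null Tfh cells, against 370 and 381 in WT Tfh cells, and 545 and 561 in Rictor-null Th1 cells, against 394 and 408 in WT Th1 cells. It rose by 0.24 ± 0.055 log2 in Tfh cells and by 0.44 ± 0.055 in Th1 cells. Ifnar1 (0.27 ± 0.064) and Il10rb (0.22 ± 0.059) rose in Tfh cells and the kinase gene Jak2 (0.38 ± 0.056) in Th1 cells. The 3 calls in Tfh cells were each lost without replicate 2 of Rictor-null Tfh or either WT Tfh array (adjusted p of 0.0604 to 0.229). Ifnar2 (-0.04 in Tfh cells and -0.01 in Th1 cells) and Ifngr2 (0.05 and -0.14) did not pass.

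Of 12 genes of nucleic acid sensing, 1 rose in Tfh cells, and 2 rose and 1 fell in Th1 cells. Samhd1, which depletes nucleotides, rose in both (0.37 ± 0.068 in Tfh cells and 0.31 ± 0.068 in Th1 cells), Sting1 rose (0.27 ± 0.077) and Irf5 fell (-0.36 ± 0.069) in Th1 cells. Sting1 kept its call under 9 of the 22 alternatives only (adjusted p of up to 0.327). In Th1 cells the calls of Irf5 (without 2 single arrays or with the mean of all probe sets, adjusted p of up to 0.124) and of Samhd1 (without 4 single arrays or after quantile normalization, up to 0.0918) were also lost, and in Tfh cells that of Samhd1 was lost without WT Tfh replicate 1 (0.0606). Of 12 negative regulators, 3 rose in Tfh cells and 4 in Th1 cells. Cish, a SOCS family gene that STAT5 induces, rose by 0.27 ± 0.061 in Tfh cells and 0.62 ± 0.061 in Th1 cells, and Irf4, a factor induced by T cell receptor signals, by 0.48 ± 0.067 and 0.42 ± 0.067. Socs1 rose in Tfh cells (0.35 ± 0.086), and Socs3 (0.59 ± 0.15) and Pias3 (0.23 ± 0.057) rose in Th1 cells. Leaving out any of 3 arrays ended the call of Socs1 (adjusted p of 0.109 to 0.168), any of 4 that of Socs3 (0.0535 to 0.198), any of 6 that of Pias3 (0.0592 to 0.155), and either WT Tfh array that of Cish in Tfh cells (0.0901 to 0.148).

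Another 54 interferon-induced genes that are not among the 42 gave 10 rises and 2 falls in Tfh cells, where 11.3% of all genes rose and 2.31% fell. They gave 15 rises and 2 falls in Th1 cells, where 7.55% of all genes rose and 2.97% fell. Cxcl10, a chemokine that attracts cells with the receptor CXCR3, had 657 and 546 in Rictor-null Tfh cells, against 232 and 236 in WT Tfh cells. In Th1 cells it had 543 and 567 in Rictor-null cells, against 235 and 242 in WT cells. These are separations of the size seen for Ifitm3, with rises of 1.25 ± 0.077 log2 in Tfh cells (adjusted p = 4.55e-06, limma) and 1.12 ± 0.077 in Th1 cells (adjusted p = 7.52e-06, limma). Iigp1, an immunity-related GTPase, rose by 0.55 ± 0.058 in Tfh cells and 0.46 ± 0.058 in Th1 cells, and Casp4, an inflammatory caspase, by 0.34 ± 0.059 and 0.48 ± 0.059. Sp110, a relative of Sp100, fell in both (-0.27 ± 0.056 and -0.35 ± 0.056), though not in Tfh cells without either WT Tfh array (adjusted p of 0.0838 to 0.108).

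Of 13 genes of class I antigen presentation, which both kinds of interferon induce, only Tap2 passed. It encodes a subunit of the peptide transporter of the endoplasmic reticulum. Its signals were 328 and 338 in Rictor-null Tfh cells, against 206 and 208 in WT Tfh cells, and 257 and 217 in Rictor-null Th1 cells, against 287 and 334 in WT Th1 cells. Tap2 rose by 0.61 ± 0.082 log2 in Tfh cells and fell by 0.35 ± 0.082 in Th1 cells, the pattern also shown by Bst2. Its fall was not called without Rictor-null Th1 replicate 2 (adjusted p = 0.167) or WT Th1 replicate 2 (adjusted p = 0.128).

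Genes of early response, which rise within minutes when cells are handled or activated, moved with the genotypes and with lineage too. Of 13 such genes 8 rose in Rictor-null Tfh cells, and 7 rose and 1 fell in Rictor-null Th1 cells, with Atf3 at 0.59 and 0.79. Of all genes 11.3% rose in Tfh cells, and 7.55% rose and 2.97% fell in Th1 cells. Their summed signal was 25403 to 25490 on the Rictor-null Tfh arrays, against 22204 to 22624 on the WT Tfh arrays. It was 29130 to 29473 on the Rictor-null Th1 arrays, against 26121 to 26425 on the WT Th1 arrays. Between lineages, 8 of the 13 were lower and 0 higher in Tfh than in Th1 cells in WT, where 11.6% of all genes were lower and 3.09% higher. In Rictor-null cells 6 were lower and 2 higher in Tfh cells, where 6.45% of all genes were lower and 3.27% higher. Of 8 Tfh markers, 8 rose in Tfh cells and 5 in Th1 cells. Of 7 Th1 markers tested, Klrg1 (1.15 in Tfh cells and 1.77 in Th1 cells) and Ccl5 (0.26 and 0.44) rose in both lineages and 0 fell. The summed signal of the Th1 markers was 18957 to 19137 on the Rictor-null Tfh arrays, against 17555 to 17591 on the WT Tfh arrays, and 17298 to 17950 on the Rictor-null Th1 arrays, against 14906 to 15428 on the WT Th1 arrays. Of 7 markers of regulatory T cells tested, 4 rose in Tfh cells and 5 in Th1 cells, while Foxp3, the factor that defines these cells, was below the filter. The summed signal of the regulatory markers was 5188 to 5398 on the Rictor-null Tfh arrays, against 3233 to 3326 on the WT Tfh arrays, and 5396 to 5543 on the Rictor-null Th1 arrays, against 3034 to 3154 on the WT Th1 arrays. The part of these 4 lists in the results on interferon-stimulated genes was not tested.

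Of markers of plasmacytoid dendritic cells, the specialised producers of type I interferon, Spib and Ly6d were below the filter. Siglech had 51.05 and 46.7 in Rictor-null Tfh cells, against 48.7 and 54.6 in WT Tfh cells, and 40.9 and 39.1 in Rictor-null Th1 cells, against 48.3 and 47.5 in WT Th1 cells, and did not pass. Of that list only Ccr9, also a homing receptor of T cells, rose (0.95 in Tfh cells and 1.57 in Th1 cells) and only Klk1 fell (-0.26 in Tfh cells), and the list's summed signal was 362 to 377 on the Rictor-null Tfh arrays, against 350 to 353 on the WT Tfh arrays, and 414 to 422 on the Rictor-null Th1 arrays, against 301 to 312 on the WT Th1 arrays. Of the markers named on the array, 6 of 7 for B cells, 6 of 7 for neutrophils, 3 of 4 for erythroid cells and 4 of 9 for myeloid and dendritic cells were below the filter. The erythroid gene tested, Car2, a carbonic anhydrase, rose in both lineages (0.61 in Tfh cells and 1.09 in Th1 cells). The erythroid sum was 183 to 186 on the Rictor-null Tfh arrays, against 132 to 143 on the WT Tfh arrays, and 265 to 283 on the Rictor-null Th1 arrays, against 130 to 138 on the WT Th1 arrays. Of 5 myeloid markers tested, Cd68 rose in Tfh cells (0.38) and 0 passed in Th1 cells by limma (0 with an unadjusted p under 0.05). The myeloid sum was 321 to 351 on the Rictor-null Tfh arrays, against 310 to 330 on the WT Tfh arrays, and 260 to 272 on the Rictor-null Th1 arrays, against 262 to 279 on the WT Th1 arrays. Of 5 CD8 T cell and NK cell markers tested, 4 rose in Tfh cells and 2 in Th1 cells, while Cd8a did not pass in either. Their summed signal was 2566 to 2738 on the Rictor-null Tfh arrays, against 2065 to 2157 on the WT Tfh arrays, and 1533 to 1539 on the Rictor-null Th1 arrays, against 1158 to 1195 on the WT Th1 arrays. The part of these markers in the results was not tested.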

How the data were processed

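The deposited table gives a linear intensity for each of 45037 probe sets, made by the authors from biotin-labelled cRNA (100 ng of total RNA per array, per the labels' protocols). Per the submitters' processing notes MAS5 and RMA were used, with no version, role or order, and the sources used here do not say how the arrays were scaled. A pseudocount of 32 was added before log2. Probe sets above their array's median on at least 2 of 8 arrays were kept, and the brightest probe set with 1 symbol stood for a gene, which gave 11217 genes. limma 3.58.1 in R 4.3.3 fitted the 4 group means on all 8 arrays together (residual degrees of freedom 4, prior 6.7). The threshold was an adjusted p of 0.05 (Benjamini-Hochberg). Errors are standard errors. An exact permutation test of 2 arrays against 2 cannot go below a two-sided p of 0.333 and was not run. The script was tested on simulated data with known changes in the Tfh genotype comparison. It called 26 of 66 changes of 0.25 log2 (39.4%) and 67 of 67 changes of 0.5 log2. A gene that did not pass can thus still have a change of about 0.25 log2.

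The 42 genes, the pathway and marker lists and the rule for named genes were chosen with earlier results of these data known. Values on every array are given for each member called between genotypes or in the interaction, for the members with the largest lineage differences in WT, and for Stat2, Irf1, Irf7, Irf9 and Usp18. Of each other list, up to 4 called genes are named. The array values of Cmpk2 were added after they were seen. Alternatives covered scaling, filter, pseudocount, probe set choice, replicate block, array weights, variance trend, fits to fewer groups and single arrays left out. Promoter letters are from RefSeq (GRCm38.p6). Figures were drawn with matplotlib.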

Additional observations from a re-analysis of the deposited data

Results flagged for a closer look

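Among the interferon-stimulated genes and the pathway lists, the genotype change differed between lineages for 3 genes by the interaction term of the fit (Tfh minus Th1). Over all 11217 genes 136 passed this test, among them genes of some marker lists and of the early response list. Bst2 had a difference of 1.40 log2 (0.90 in Tfh cells and -0.50 in Th1 cells), and it passed under each of the 22 alternatives tried. Ifitm1 had 0.47, which was lost when any of 6 arrays was left out. Tap2, from the class I list and not among the 42 genes, had 0.96 (0.61 in Tfh cells and -0.35 in Th1 cells, adjusted p = 0.00401, limma) and passed under each of the 22. No group was large enough for a test of outlying arrays.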

How the results depend on the processing

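Under the 22 alternatives no called gene of the 42 changed direction. Called under each of them were 9 of 17 genes in Tfh cells (Bst2, Gbp3, Ifi27l2a, Ifit1, Ifit3, Ifitm1, Ifitm2, Ifitm3, Mx1), 8 of 12 in Th1 cells (Gbp3, Ifi27l2a, Ifit3, Ifitm1, Ifitm2, Ifitm3, Mx1, Oasl2), Bst2, Ifitm1 and Samd9l between lineages in Rictor-null cells, Bst2 and Ifitm1 in WT cells, and Bst2 for the interaction. With 1 array left out in turn, the number called ranged from 9 to 22 in Tfh cells, 9 to 14 in Th1 cells, 3 to 10 between lineages in Rictor-null cells, 2 to 14 in WT cells and 1 to 9 for the interaction. The interaction gave 1 gene after quantile normalization, with no filter, with a pseudocount of 1, with each probe set on its own, with the replicate block and without the 2 arrays that stood apart. Array weights gave 8 lineage calls in Rictor-null cells, where 660 of all 11217 genes passed, and 16 in WT cells, where 3175 did. The arrays of the contrast alone gave 6 in Rictor-null cells, where 595 of all genes passed. The cause of these differences was not tested. With single arrays left out, the number called over all genes varied too, so those ranges do not describe the listed genes alone. Deviations of same-numbered arrays correlated at 0.276 between the genotypes in Tfh and 0.172 in Th1 cells, and at -0.514 to 0.003 across lineages, and no label ties the numbers to a shared mouse or day, so they were not taken to pair the samples. With the replicate number as a block, 14 genes were called in Tfh cells, 11 in Th1 cells, 9 between lineages in Rictor-null cells and 8 in WT cells. Over all genes these numbers were 1111, 952, 796 and 1003. A crossed pairing (Tfh replicate 1 with Th1 replicate 2), chosen after seeing the data, gave 21, 15, 16, 14 and, for the interaction, 4. Over all genes it gave 2364, 1939, 1764, 2725 and, for the interaction, 736.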

Other observations

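Among the 40 genes, 15 had 21 further probe sets, of which 14 passed the filter. A dimmer probe set of Xaf1, an interferon-induced partner of the apoptosis inhibitor XIAP, had a change of 0.92 log2 in Tfh cells and 0.97 in Th1 cells (adjusted p = 0.00074 and 0.000434, limma, over all probe sets that passed the filter), whereas the brightest probe set of Xaf1 had 0.12 and 0.11 and did not pass. The sources used here do not say where on the transcript these probe sets lie. This gene was singled out after its values were seen.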
